A study of Mus musculus with 5 samples.

Results

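The MHC class II genes of the mouse and their main regulators were followed here in embryonic stem (ES) cells. Members were the rows of the deposited RNA-Seq table named H2-Aa, H2-Ab1, H2-Eb1, H2-Eb2, H2-DMa, H2-DMb1, H2-Oa, H2-Ob, Cd74 and Ciita, and all 10 were found among the 24016 genes of the table. The study compared ES cells of autoimmune-prone strains with ES cells of other strains by mRNA-Seq of poly-dT selected RNA with strand kept. It held 5 libraries from 4 strains, namely 2 of NOD (labelled NOD1 and NOD5, replicates 1 and 5), 1 of NZB, 1 of B6 (C57BL/6) and 1 of v6.5, a hybrid of 129SvJae and C57BL/6. All were ES cells isolated from embryos and grown in 2i, a medium that blocks MEK and GSK3, and no other treatment, genetic change or age is given. The design names NOD and NZB as autoimmune-prone. NOD mice develop autoimmune diabetes and NZB mice autoimmune anaemia.

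Each strain other than NOD was a single library, so a difference from it has no replicate check of its own. Nothing in the labels says that the libraries were grown or sequenced together, and the p-values measure only the spread between these libraries. The authors' HOMER command, at the top of the table, lists 2 directories named for B6 and none named for v6.5. Its group labels name only B6, NOD and NZB, so v6.5 below means only the library that carries this label. A fit with v6.5 joined to B6 is given in the last section. The command also gives the NOD5 library a name that joins 5 and 6, so whether it holds a single line is not known. Recovered reads ranged from 7713133 in NOD1 to 21387796 in NOD5. The ribosomal precursor Rn45s took 41.36% of the reads in B6 and between 1.95% and 14.29% in the other libraries, and values were therefore rescaled for composition. A normalised read is the deposited value divided by that library's factor. The depth limits what low genes can show, since 3 reads correspond to 1.49 normalised reads in NOD5, 3.11 in NZB, 4.04 in v6.5, 4.13 in B6 and 4.54 in NOD1.

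Class II molecules are pairs of an α and a β chain that carry peptides from engulfed protein to the cell surface, where CD4 T cells read them. They are normally a property of B cells, dendritic cells and macrophages, and interferon-γ can switch them on in other cells. The coactivator Ciita controls the family, and it is recruited to the promoters by factors bound to a short array of elements, the X box (bound by the RFX complex and by CREB) and the Y box (bound by NF-Y). The invariant chain Cd74 escorts new class II pairs, H2-M (from H2-DMa and H2-DMb1 or H2-DMb2) exchanges their peptides, and H2-O (from H2-Oa and H2-Ob) restrains H2-M. The strains differ in these genes by descent. B6 and 129 mice carry the H2 haplotype b, NOD mice g7 and NZB mice d, and in haplotypes b and g7 a deletion removes the promoter of the I-E α gene. Reads of every strain were aligned to the B6 genome, and how many NOD or NZB reads were lost to sequence differences was not tested.

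The promoters are shown because Ciita acts through the array in this family, of which only the letters below were sought. The letters GNAAC, found in the X box, followed 15 to 40 bases on by ATTGG, the letters of the Y box on this strand, were looked for on both strands of the 250 bases before each gene start in the RefSeq promoter table (GRCm38.p6). The search was written after some of these sequences had been read. Of the 10 members, 7 matched the table and 6 held the pair, all on the strand of the gene. H2-Ab1, Cd74 and Ciita had no matching entry, so their promoters were not searched. The pair stood in 3.56% of all 32851 promoters on either strand and in 1.78% on the gene's strand. Capitals mark the letters of each element, the first the X box letters and the second the Y box letters, and each stretch reads 5′ to 3′ on the gene's strand.
H2-Aa: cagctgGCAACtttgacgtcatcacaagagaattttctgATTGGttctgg
H2-Eb1: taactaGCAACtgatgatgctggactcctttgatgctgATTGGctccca
H2-Eb2: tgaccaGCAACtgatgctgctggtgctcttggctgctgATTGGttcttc
H2-DMb1: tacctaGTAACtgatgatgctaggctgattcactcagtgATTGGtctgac
H2-Oa: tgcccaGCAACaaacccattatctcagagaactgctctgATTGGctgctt
H2-Ob: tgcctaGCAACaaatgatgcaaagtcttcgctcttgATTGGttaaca

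All 6 lie on chromosome 17 of GRCm38.p6. The stretch of H2-Aa is at chr17:34287861-34287910 on the minus strand. Those on the plus strand are chr17:34305770-34305818 for H2-Eb1, chr17:34325537-34325585 for H2-Eb2, chr17:34153091-34153140 for H2-DMb1, chr17:34092297-34092346 for H2-Oa and chr17:34238812-34238858 for H2-Ob. The gap between the elements was 25 bases in H2-Ob, 27 in H2-Eb1 and H2-Eb2, and 28 in H2-Aa, H2-DMb1 and H2-Oa. The X box letters began between 76 bases (H2-Oa) and 132 bases (H2-Eb2) before the start. H2-DMa has 2 entries in the table and neither held the pair, which says only that these letters are not in these windows. H2-Eb1 and H2-Eb2 thus have the same letters and the same gap in the reference, and their levels are given below. How alike the bases in the gap are was not measured.

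H2-Eb1, the β chain of I-E, was the most abundant member in NOD and NZB. It lies at chr17:34442812-34453619 of mm9 on the plus strand and has the Entrez ID 14969. Coordinates of genes here and below span the whole gene, and reads were counted over its exons. It stood at 803 normalised reads in NOD1, 616 in NOD5, 639 in NZB, 28.9 for B6 and 27.0 for v6.5. These rest on 531, 1238, 617, 21 and 20 reads. The NOD and NZB libraries lie close together and far above both others. What share of all genes sets NOD and NZB apart from B6 and v6.5 was not counted, for this or any member below. The mean of NOD was 710 ± 132 (SD, n = 2).

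In the limma-trend fit over the 5 libraries, on log2(normalised value + 1), H2-Eb1 was higher in NOD than in B6 by 4.56 (SE 0.53, adjusted p = 0.0380), a fold of 23.6. It passed in 11 of the 12 settings that give a test, and missed in the one without a filter on low genes (adjusted p = 0.109). Against v6.5 the log2 difference was 4.66 (SE 0.53, adjusted p = 0.0560), just outside the threshold of 0.05, and by edgeR's quasi-likelihood test on reads it passed (adjusted p = 0.00133). NZB exceeded B6 by 4.42 (SE 0.62), with an adjusted p of 0.172 by limma and 0.00919 by edgeR. NOD and NZB did not differ beyond the spread, at 0.14 on the log2 scale (95% interval -1.12 to 1.40, limma adjusted p = 0.999), and the sign turned to -0.03 without rescaling for composition. Between v6.5 and B6 the difference was -0.10 (95% interval -1.55 to 1.36), also within the spread. B6, v6.5 and NZB had no replicate, so this spread is that of the NOD libraries, moderated across genes.

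The partner of H2-Eb1 was not seen. The I-E α gene, listed in the table as H2-Ea-ps, had 0 reads in all 5 libraries. H2-Eb2, an I-E β-like gene next to H2-Eb1 at chr17:34462620-34478355, had 0 and 5 reads in NOD, 2 in NZB, 3 for B6 and 4 for v6.5. Its normalised level was between 0 and 5.39 in every library, highest in v6.5, and too low to be tested. None of the 50-base stretches of the H2-Eb1 transcript occurs in another gene's transcript of the reference, so no such stretch of the B6 reference places reads of H2-Eb1 at H2-Eb2.

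**Figure D1:**
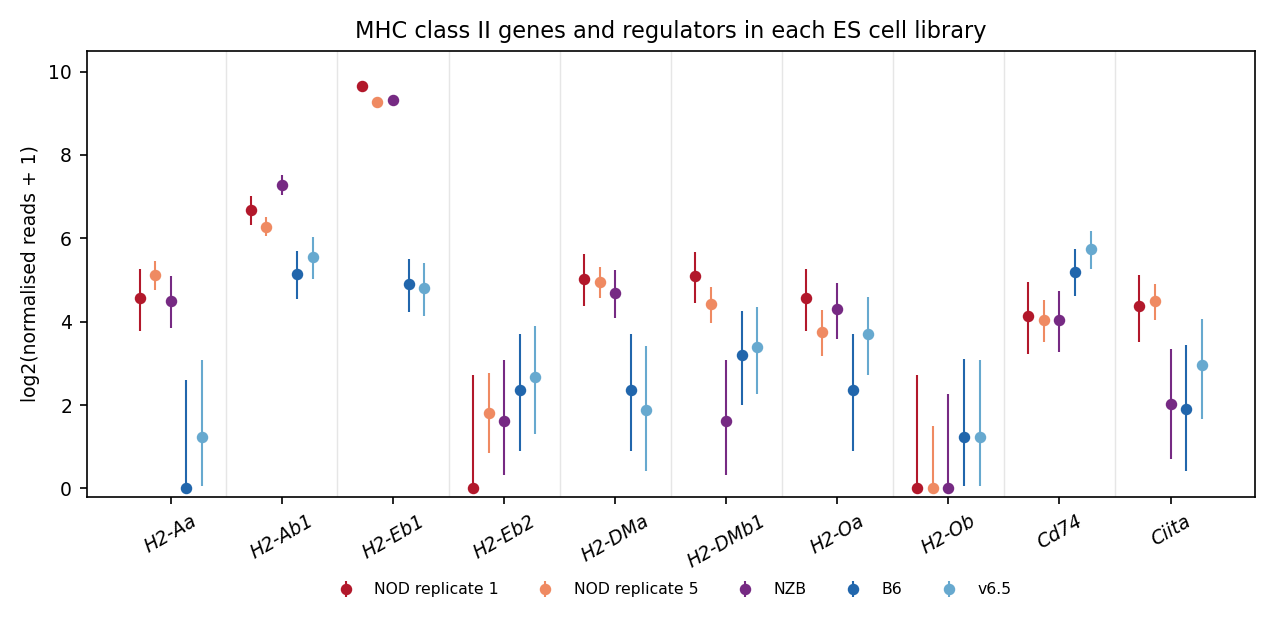
Level of each member in each ES cell library, as log2(normalised reads + 1), with bars for the 95% Poisson interval of the reads. H2-Eb1 stands at 616 to 803 normalised reads in NOD and NZB against 27.0 and 28.9 in v6.5 and B6, while Cd74 has the opposite order.

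H2-Aa, the α chain of I-A, followed the same split at a much lower level. It lies at chr17:34419696-34424716 on the minus strand of mm9 (Entrez ID 14960). It had 22.7 normalised reads in NOD1, 33.9 in NOD5, 21.8 in NZB, 0 for B6 and 1.34 for v6.5, from 15, 68, 21, 0 and 1 reads. All NOD and NZB values lay above those of B6 and v6.5, an order whose share over all genes was not counted. Set over a floor of 3 reads in the B6 library, H2-Aa was 6.85-fold higher in NOD and 5.27-fold higher in NZB. These are not lower limits. The exact counting intervals, which use the 0 reads of B6 and not the floor, begin at 5.99 for NOD and 3.92 for NZB. Against the 1 read of v6.5 the NOD level was 23.1 times higher, with a counting interval of 4.03 to 922. The fitted difference between NOD and B6 was 4.84 (SE 1.05), a value that depends on the pseudocount of 1, and it did not pass (limma adjusted p = 0.101). Its promoter holds the pair of letters shown above.

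H2-Ab1, the β chain of I-A, had higher levels in NOD and NZB by a smaller factor than H2-Eb1, and none of its differences passed in the limma fits on rescaled values. It lies beside H2-Aa at chr17:34400172-34406363 on the plus strand (Entrez ID 14961). Normalised reads were 101.3 in NOD1, 76.7 in NOD5, 155 in NZB, 34.4 for B6 and 45.8 for v6.5. NZB was highest and all 3 NOD and NZB libraries were above the other pair. The log2 difference from B6 was 1.33 in NOD (limma adjusted p = 0.379) and 2.14 in NZB (adjusted p = 0.570), and neither passed. By counting error alone, with the reads of the NOD libraries pooled, NZB stood 1.88 times above NOD (interval 1.52 to 2.32), without a replicate of NZB.

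Per kilobase of transcript, which allows levels of different genes to be set side by side, the balance of the chains differed between libraries. Ratios within 1 library do not depend on the rescaling. H2-Eb1 was 5.65 times the level of H2-Ab1 in NOD1 (counting interval 4.38 to 7.40), 5.74 in NOD5 (4.85 to 6.83) and 2.94 in NZB (2.45 to 3.53). In B6 it was 0.599 (0.319 to 1.12) and in v6.5 0.420 (0.229 to 0.750). The β chain of I-E thus exceeded that of I-A in NOD and NZB and was the lower of both in v6.5, while the interval in B6 includes 1. Within I-A, H2-Ab1 was 4.003 times the level of H2-Aa in NOD1 (2.26 to 7.55), 2.03 in NOD5 (1.52 to 2.74), 6.401 in NZB (4.04 to 10.7) and 30.5 in v6.5 (5.11 to 1238). In B6 there were 25 reads of H2-Ab1 and 0 of H2-Aa.

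**Figure D2:**
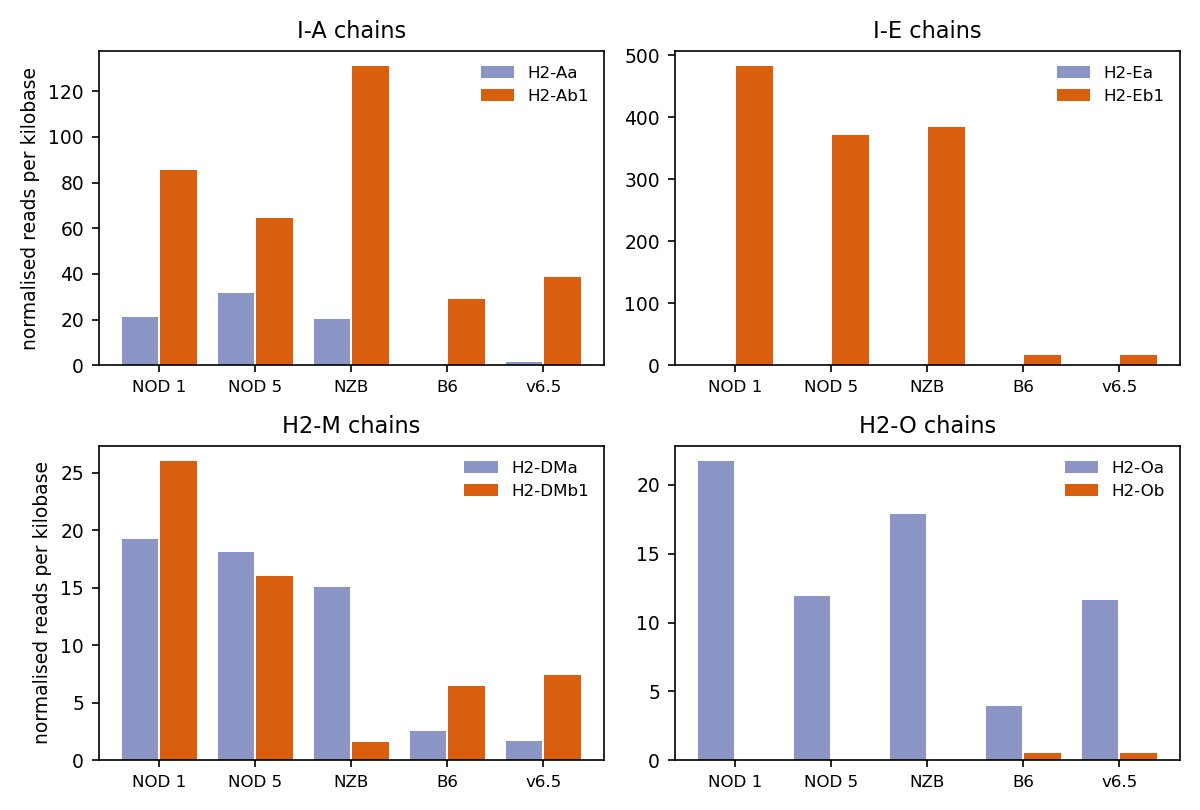
Normalised reads per kilobase of the α chain and the β chain of 4 class II pairs in each library, with bars starting at 0 and a different vertical scale in each panel. H2-DMa and H2-DMb1 were close in NOD, while H2-Eb1 reached 371 to 483 in NOD and NZB beside 0 for H2-Ea, and H2-Oa reached 11.9 to 21.8 there beside 0 for H2-Ob.

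H2-DMa, the α chain of the peptide exchange factor H2-M, was another member with the NOD and NZB pattern. It lies at chr17:34259777-34276046 on the plus strand (Entrez ID 14998). It had 31.8 normalised reads in NOD1, 29.9 in NOD5, 24.9 in NZB, 4.12 for B6 and 2.70 for v6.5, from 21, 60, 24, 3 and 2 reads. The NOD lines agreed to within counting error, and NOD and NZB were all above the other pair. The ratio of NOD to B6 was 7.35 (counting interval 2.43 to 36.4) and that of NZB to B6 6.02 (1.83 to 31.3). In the limma fit NOD exceeded B6 by 2.63 (SE 0.96, adjusted p = 0.234), which did not pass. Neither of its promoter windows held the letters sought.

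H2-DMb1, the β chain of H2-M, departed from its partner in NZB. It lies at chr17:34290136-34297174 on the plus strand (Entrez ID 14999). It had 33.3 normalised reads in NOD1, 20.4 in NOD5, 2.07 in NZB, 8.25 for B6 and 9.43 for v6.5. Here NZB was lowest, at 2 reads, and NOD highest. NOD was 11.4 times NZB by counting (interval 3.02 to 96.1), and the fitted log2 difference of 3.14 (SE 1.01) had an unadjusted p under 0.05 but an adjusted p of 0.4999 by limma. The per-kilobase ratio of H2-DMb1 to H2-DMa was 1.36 in NOD1 and 0.884 in NOD5, with intervals that include 1, and 0.108 in NZB (0.0123 to 0.434). Of the 50-base stretches of H2-DMb1, 27.2% also occur in H2-DMb2, so its level is uncertain where reads were divided between them. H2-DMb2 itself had 1 read in all, in NOD5. None of the other members shared such a stretch with another gene.

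The H2-O chains were low. H2-Oa lies at chr17:34229324-34232179 and H2-Ob at chr17:34375850-34382853, both on the plus strand (Entrez IDs 15001 and 15002). H2-Oa had 22.7 and 12.4 normalised reads in NOD, 18.65 in NZB, 4.12 for B6 and 12.13 for v6.5, from 15, 25, 18, 3 and 9 reads. B6 was lowest, at the floor of 3 reads, and v6.5 lay within counting error of NOD5. The fitted log2 difference of NOD from B6 was 1.80 (SE 0.996, limma adjusted p = 0.403), which did not pass. H2-Ob, its partner, had 0 reads in both NOD libraries and in NZB and 1 read in each of B6 and v6.5, which is under the floor in every library, and was not tested. The promoter of H2-Ob holds the pair of letters sought, as those of H2-Aa and H2-Oa do.

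Cd74 had the opposite order of levels to the chains it escorts. It lies on chromosome 18 at 60963503 to 60972306 of mm9 (Entrez ID 16149). Normalised reads were 16.6 in NOD1, 15.4 in NOD5, 15.6 in NZB, 35.8 for B6 and 52.5 for v6.5, from 11, 31, 15, 26 and 39 reads. The 3 NOD and NZB libraries were nearly level and all below the other pair. By counting, B6 stood 2.27 times above NOD (interval 1.34 to 3.797) and v6.5 3.34 times (2.10 to 5.29). The fitted log2 difference of NOD from B6 was -1.11 (SE 0.86, limma adjusted p = 0.547), which did not pass. Without rescaling for composition it was -0.41, so the size of the gap rests on the scaling. Within a library, H2-Eb1 was 40.8, 33.8 and 34.8 times Cd74 per kilobase in NOD1, NOD5 and NZB, and 0.683 and 0.433 times in B6 and v6.5.

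Ciita, the coactivator of the family, was low throughout, with its highest levels in NOD. It lies on chromosome 16 at 10488271 to 10527657 of mm9 (Entrez ID 12265). It had 19.7 normalised reads in NOD1, 21.4 in NOD5, 3.11 in NZB, 2.76 for B6 and 6.73 for v6.5, from 13, 43, 3, 2 and 5 reads. Both NOD lines were above the other 3 libraries, and NZB, with high H2-Eb1, had a value near that of B6. The ratio of NOD to B6 was 7.62 by counting (interval 2.01 to 64.5) and that of NOD to NZB 6.75 (2.19 to 33.7). In the limma fit the log2 differences were 2.52 (SE 1.02, adjusted p = 0.276) and 2.39 (SE 1.02, adjusted p = 0.697), and neither passed. For NZB against B6 the ratio was 1.13 (0.129 to 13.5), an interval too wide to call the levels alike. At 3.76 and 4.09 normalised reads per kilobase in NOD, Ciita was far below H2-Eb1 at 483 and 371.

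Counted over the family, 8 of the 10 members passed the filter on low reads and were tested, H2-Eb2 and H2-Ob being too low. In NOD against B6, 1 of the 8 was called by limma (H2-Eb1), where 0.462% of all 14280 genes tested were called. Their median log2 difference was 2.16 beside 0.06 over all genes, and 4 members had an unadjusted p under 0.05, as had 17.15% of all genes. By edgeR 1 member was called, beside 3.77% of all genes, and in a limma fit of the NOD and B6 libraries alone again H2-Eb1 only, beside 2.87%. In NOD against v6.5 limma called 0 members and 0% of all genes, 3 members having an unadjusted p under 0.05 (14.81% of all genes), while H2-Eb1 passed by edgeR, beside 2.22% of all genes. In NZB against B6 limma called 0 members beside 0.007% of all genes, with 3 members at an unadjusted p under 0.05 (8.12% of all genes), and edgeR H2-Eb1 beside 0.42%. In NOD against NZB 0 members were called by limma (0.077% of all genes), edgeR and DESeq2, with 1 member, H2-DMb1, at an unadjusted limma p under 0.05 (7.24% of all genes). In v6.5 against B6 limma, edgeR and DESeq2 called 0 members (limma 0% of all genes), with 0 at an unadjusted p under 0.05 (1.89% of all genes by limma). These comparisons share libraries and are not independent of each other.

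**Figure D3:**
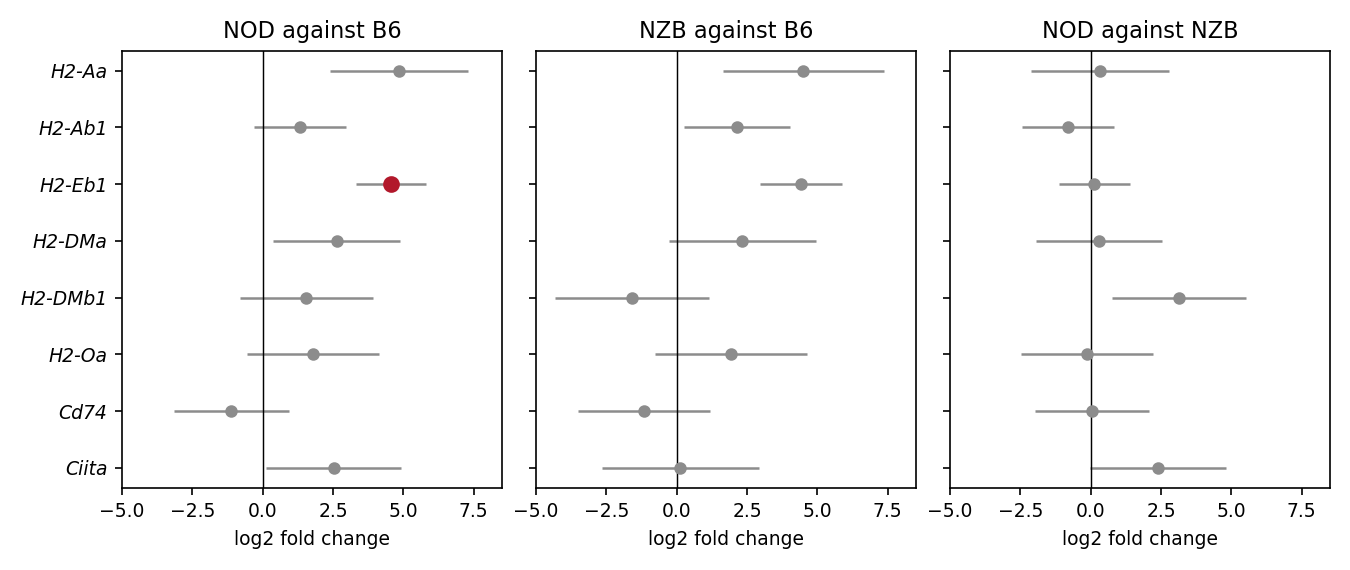
Log2 fold changes of the 8 tested members from the limma fit on log2(normalised value + 1), with 95% intervals, for NOD against B6, NZB against B6 and NOD against NZB. The red point is the only one with an adjusted p under 0.05 in these panels, H2-Eb1 in NOD against B6 at 4.56, and the B6 value of H2-Aa rests on 0 reads.

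NOD set against the mean of the 3 other lines, a comparison in which NZB counts among the others, gave 0 members called by limma, edgeR and DESeq2, beside 0.644% of all genes by limma, with 4 members at an unadjusted p under 0.05 (17.42% of all genes). H2-Eb1 was higher by 3.12 there (limma adjusted p = 0.233). Without the NZB library the difference was 4.60 (adjusted p = 0.00221) and 2 members, H2-Aa and H2-Eb1, were called, beside 9.23% of all genes.

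A grouping by the design's own term, the autoimmune-prone strains (NOD and NZB, 3 libraries) against B6 and v6.5 (2 libraries), was added after the values had been seen. The former holds both NOD libraries beside NZB, and v6.5 is by its label a hybrid with B6. The libraries of a group are thus not independent strains. The SDs and p-values here do not measure the spread between autoimmune-prone strains or between other strains. H2-Eb1 averaged 686 ± 102 (SD, n = 3) in the former and 27.9 ± 1.38 (n = 2) in the latter, a log2 difference of 4.56 (SE 0.30, limma adjusted p = 0.00207). H2-Aa averaged 26.1 ± 6.73 against 0.672 ± 0.951, with a log2 difference of 4.12 (SE 0.80, adjusted p = 0.0408). These were 2 of 8 members, beside 3.61% of all genes, and by edgeR H2-Eb1 alone was called, beside 2.44%. Of the members 5 had an unadjusted limma p under 0.05, as had 25.4% of all genes. H2-DMa averaged 28.8 ± 3.56 against 3.41 ± 1.01 (2.77 on the log2 scale, SE 0.65, adjusted p = 0.0561), just outside the threshold. Cd74 averaged 15.9 ± 0.665 against 44.2 ± 11.9 (-1.40, SE 0.54, adjusted p = 0.160) and H2-Ab1 111 ± 40.3 against 40.1 ± 8.06 (1.40, SE 0.46, adjusted p = 0.111), and neither passed. H2-Eb1 passed in 13 of the 14 alternative settings, and missed without v6.5 with an adjusted p of 0.0511 at a difference of 4.51. H2-Aa no longer passed without NOD1 (0.0824), NOD5 (0.127), B6 (0.272) or v6.5 (0.188), all limma adjusted p values.

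The other genes of the pathway gave no call in NOD against B6, where 0.462% of all genes were called by limma. Of 25 listed genes for chains, promoter factors, interferon-γ signalling, peptide processing and turnover, 21 passed the filter. None of the 21 was called by limma, edgeR or DESeq2 with the filter on. The median log2 difference of the 21 was 0.01, and 2 of them, both with lower values in NOD, had an unadjusted limma p under 0.05, a smaller share than the 17.15% over all genes. Rfx5, a subunit of the RFX complex that binds the X box, differed by -1.25 (SE 0.52, limma adjusted p = 0.281), and Irf1, an interferon-induced activator of Ciita, by -1.35 (SE 0.46, adjusted p = 0.216). Ifi30, a reductase that opens disulfide bonds of proteins to be presented, differed by 0.85 in NOD (adjusted p = 0.504) and 1.27 in NZB (adjusted p = 0.683). Its NOD libraries were far apart, at 1769 normalised reads in NOD1 and 672.6 in NOD5, beside 605.5 in B6.

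**Figure D4:**
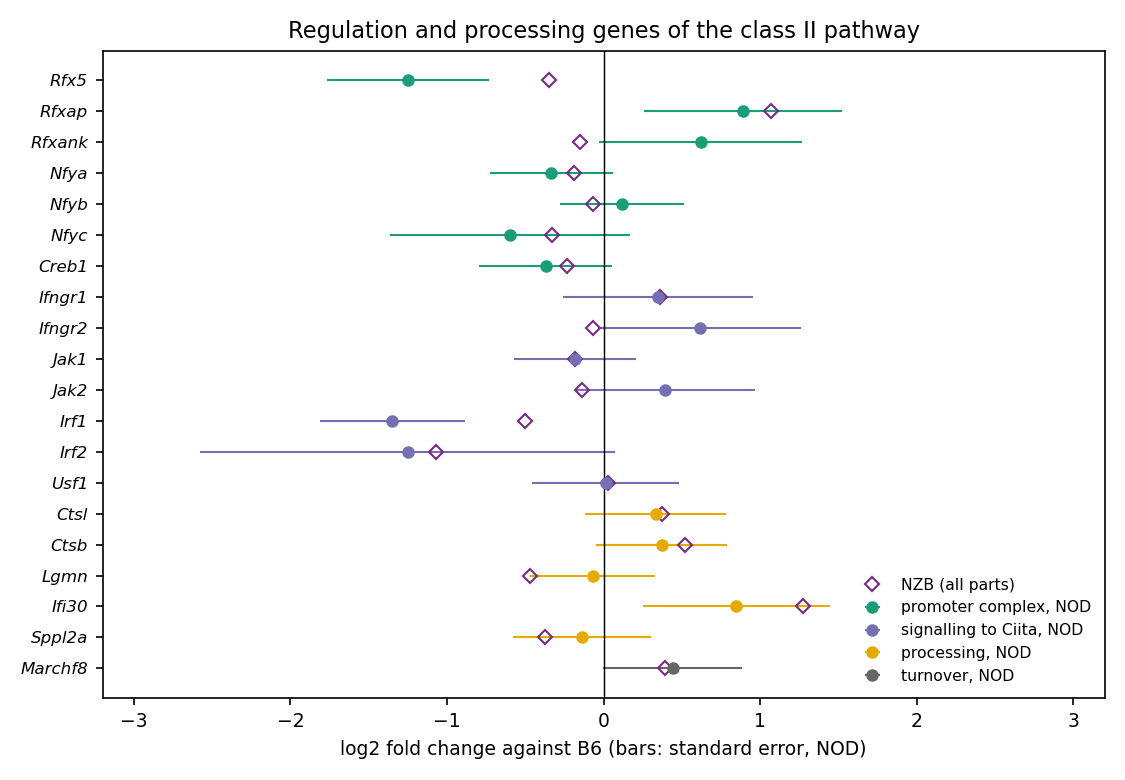
Log2 fold changes against B6 of the tested pathway genes reported here, coloured by their role, for NOD (filled points with standard errors) and NZB (open diamonds). None passed the adjusted threshold, with values in NOD from -1.35 (Irf1) to 0.89 (Rfxap).

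Ctss, a protease that trims the invariant chain, and Marchf1, a ligase that removes class II from the surface of antigen-presenting cells, were too low to be tested. Marchf1 had 0 reads in both NOD libraries, 1 in NZB, 6 for B6 and 4 for v6.5. Ctss had 0 and 3 reads in NOD, 3 in NZB, 9 for B6 and 2 for v6.5.

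Along chromosome 17, 8 of the members lie with 6 other genes of the table between 34229324 and 34478355 of mm9. Of these 14 genes 10 were tested, and H2-Eb1 was the only one called in NOD against B6, by limma (0.462% of all genes) as by edgeR (3.77%). The genes between the members were not all alike. Tap2, a subunit of the peptide transporter that feeds class I molecules, had 156 and 63.2 normalised reads in NOD, 32.1 in NZB, 15.1 for B6 and 13.5 for v6.5. Its log2 difference between NOD and B6 was 2.64 (limma adjusted p = 0.212). Tap1, the other subunit, had 383 normalised reads in NOD1 and 72.7 in NOD5 and so differed widely between the NOD libraries, beside 57.0 in NZB, 52.3 for B6 and 6.73 for v6.5. Brd2, a chromatin reader expressed in most cells, lay between 2919 and 6311 in every library.

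**Figure D5:**
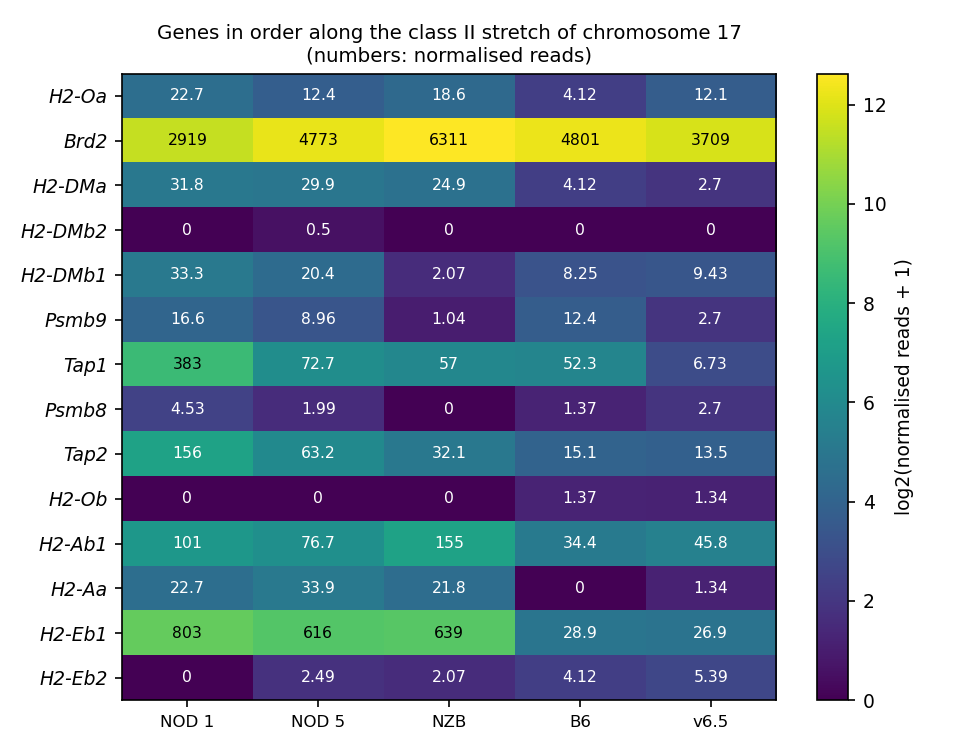
The 14 genes of the class II stretch in their order on chromosome 17, from H2-Oa to H2-Eb2, by library, with colour for log2(normalised reads + 1) and the normalised reads printed. H2-Eb1 is the brightest class II gene in NOD and NZB (616 to 803), and H2-DMb2 and H2-Ob next to other members stay at 0 to 1.37.

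The genes whose log2 levels followed H2-Eb1 most closely over the 5 libraries were Dvl2 (Pearson r = 0.9989), Sft2d1 (0.9988), Xlr4c (0.9986), Yap1 (0.9986) and 1810032O08Rik (0.9985). With 5 points that share the same strains this is a description only. Sft2d1 is on chromosome 17 and had 27.2, 26.9 and 25.9 normalised reads in NOD1, NOD5 and NZB against 13.8 and 13.5 in B6 and v6.5. Xlr4c, of a multicopy family whose near-identical copies can share reads, had 12.09, 8.96, 11.4, 0 and 0. Among the members r was 0.993 for H2-DMa, 0.969 for H2-Aa, 0.889 for H2-Ab1, 0.758 for H2-Oa, 0.544 for Ciita, 0.202 for H2-DMb1 and -0.967 for Cd74.

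Markers of cells that normally carry class II did not follow H2-Eb1. The 9 ES cell markers were detected in every library, with a summed level between 33305 and 64879 normalised reads. The 14 leukocyte markers summed to 98.3 in NOD1, 82.7 in NOD5, 97.4 in NZB, 151 for B6 and 91.6 for v6.5, so B6 was highest. Of these, 7 were at 0 in NOD1, 3 in NOD5, 6 in NZB, 2 for B6 and 1 for v6.5. The B cell gene Ms4a1 and the myeloid genes Lyz2 and Tyrobp had 0 reads in both NOD libraries and in NZB. The 7 fibroblast markers summed to 198 and 216 in NOD, 816 in v6.5, 6806 in B6 and 8515 in NZB, an order that joins NZB with B6 rather than with NOD. The part of these cells' RNA in the class II values was otherwise not tested, and in bulk RNA more cells with a transcript and more transcript per cell cannot be told apart.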

How the data were processed

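Each deposited signal value is a gene's read count, which the authors made by aligning reads to mm9 with STAR (2.2.0c in the submitters' processing notes, which also name CASAVA 1.8.2), counting over RefSeq exons on 1 strand with HOMER and rescaling each library to the same total, so they are neither logged nor divided by length. Of the values under 3000, 100% lay within 0.05 of a whole read, and reads were recovered by dividing by the step of each library. The authors' deposited fold changes, p-values and FDR values were not used, and 27 symbols turned into dates were not named.

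Values were divided by TMM factors (edgeR 4.0.16) over the 5 libraries. Genes passing filterByExpr on the recovered reads were tested with limma-trend (limma 3.58.1, R 4.3.3) on log2(value + 1), with 1 mean per strain and 1 residual degree of freedom moderated across genes. A lone library is thus assumed to vary like the NOD pair. In NOD against the 3 other lines and in the grouping of NOD and NZB the error holds the spread between libraries of a group. Adjusted p is Benjamini-Hochberg over all genes tested, threshold 0.05, two-sided. For reads the plan gave edgeR's quasi-likelihood test as the main test, and it was run on the recovered reads beside limma, with DESeq2 1.42.0 as another alternative. Other alternatives were no TMM, DESeq2 size factors, Rn45s left out, pseudocounts of 0.5 and 4, no filter, libraries left out and robust moderation. Counting intervals are exact 95% intervals of reads, cover counting error only, and treat reads as independent although they carry no molecular identifiers. Ratios of NOD by counting pool the reads of both its libraries, so NOD5 weighs most. Their intervals leave out the difference between NOD1 and NOD5. Levels per kilobase use the transcript lengths of the table, and shared 50-base stretches were sought in the transcripts of the reference.

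The members, the pathway and marker lists and the search for promoter letters were chosen with earlier results of these data known. All 10 members were described whatever their values. The genes most like H2-Eb1 were the 5 with the highest Pearson r of log2 values. Of the stretch of chromosome 17, Tap1, Tap2 and Brd2, and of the pathway Ifi30, Marchf1 and Ctss, were named after their values were seen. A gene counted in the pathway list is not reported here. The fits were tested on simulated data.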

Additional observations from a re-analysis of the deposited data

How the results depend on the processing

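H2-Eb1 in NOD against B6 kept its direction in every setting run (log2 difference 4.42 to 5.26) and missed the threshold only without a filter. The count of members called there was 1, and became 2 without TMM and 3 with v6.5 and B6 joined, with 3 and 4 genes of the chromosome 17 stretch. In NOD against v6.5 the count rose from 0 to 1 without TMM, with DESeq2 size factors, by edgeR, by DESeq2 and with robust moderation (H2-Eb1 each time) and without a filter (H2-Ob, which has 1 read). Calls over all genes there rose from 0 to 259 without TMM and 104 with size factors. They were 317 by edgeR, 458 by DESeq2 and 1189 without a filter. In NZB against B6 the member count rose from 0 to 1 without TMM, by edgeR, by DESeq2 and with robust moderation (H2-Eb1) and without a filter (H2-Ob). Calls over all genes there rose from 1 to 132 without TMM, 60 by edgeR and 1303 without a filter. Without a filter 1 pathway gene was called (Marchf1) in NOD against B6. In NOD against the 3 other lines the count was 1 without TMM and ranged from 0 to 2 with 1 library left out. For NOD and NZB against B6 and v6.5 it was 2, and became 4 without TMM and by DESeq2, 1 without a filter and by edgeR, and ranged from 0 to 2 with 1 library left out. Reversed signs, none of them called, were H2-Eb1 (-0.0285) and Cd74 (-0.12) in NOD against NZB without TMM, there also H2-Eb1 (-0.03) without NOD replicate 1 and H2-Oa (from -0.14 to 0.27) without NOD replicate 5, and H2-DMb1 (-0.25) in NOD and NZB against B6 and v6.5 without NOD replicate 1 (where the range over left-out libraries was -0.25 to 1.46). Where no construction shows it, the cause was not tested. Over all genes, NOD and NZB against B6 and v6.5 gave 516 calls by limma and 349 by edgeR. A change in a member count is thus not a result about the members alone. For settings whose calls over all genes are not given here, the member count has no such share beside it and is not read as a result.

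Calls over all genes in NOD against B6 depended strongly on the fit, with 66 in limma, 222 with DESeq2 size factors, 399 with robust moderation, 411 in the NOD and B6 libraries alone (667 there by edgeR), 538 by edgeR, 667 by DESeq2, 1160 with v6.5 joined to B6, 1185 without a filter and 1195 without TMM. Without TMM the median over all genes moves by 0.72 in NOD against B6, 0.89 in NZB against B6, 0.67 in v6.5 against B6, 0.44 in NOD and NZB against B6 and v6.5, 0.20 in NOD against the 3 other lines and -0.17 in NOD against NZB. Leaving out a NOD library leaves no residual degree of freedom in the strain fits, which then give values with no test. No paired analysis was possible because B6, NZB and v6.5 have 1 library each. Depth limits H2-Eb2 and H2-Ob in every library, Ciita in NZB, B6 and v6.5, and H2-Aa and H2-DMa in B6 and v6.5. It also limits H2-DMb1 in NZB and H2-Oa in B6, and all these values rest on 5 reads or fewer.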
